A study of Mus musculus with 18 samples.

Results

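Regulatory T (Treg) cells release several molecules through which they restrain other lymphocytes, and 7 of their genes are described here: Fgl2, Il10, Ebi3, Il12a, Gzmb, Penk and Ecm1. They were taken as a named list, which was chosen with earlier results of these data known. They are 7 of the 18193 genes that the arrays measured with probe sets assigned to exactly 1 gene. Such probe sets numbered 34945, and 8 of them belong to these genes. Each gene was represented by the most variable of its probe sets over the 18 arrays. Fgl2 had a second probe set, which is given as a check, and the other genes had 1 each.

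Treg cells suppress by several routes. Some products act as cytokines on neighbouring cells, namely IL-10 and IL-35, the second of which is a pair of the Ebi3 and Il12a products. Fgl2 is a secreted fibrinogen-like protein that binds an inhibitory Fc receptor on antigen-presenting cells, granzyme B is a protease of cytotoxic granules, Penk encodes the precursor of the enkephalin opioid peptides, and Ecm1 is a secreted glycoprotein of the extracellular matrix. Foxp3 is the transcription factor that defines the Treg lineage, and A384T, I363V and R397W are substitutions in its DNA-binding forkhead domain.

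RNA of freshly sorted CD4 T cells from lymph nodes and spleen of B6;129 mice was hybridised to Affymetrix arrays. The gene for Foxp3 lies on the X chromosome, and all mice were heterozygous for a pair of Foxp3 reporter alleles. Each Treg cell therefore expressed either the hCD2 or the GFP reporter. The groups with a mutant allele were A384T, I363V and R397W Treg cells (3 arrays each), sorted as hCD2-positive cells from mice whose hCD2 allele carried the substitution and whose GFP allele was wild type. The wild-type groups were WT hCD2 (2 arrays, numbered 3 and 4, hCD2-positive Treg cells of wild-type mice), WT GFP of A384T mice (3 arrays, the GFP-positive wild-type Treg cells beside the A384T cells) and WT GFP (2 arrays, GFP-positive Treg cells of wild-type mice). Conventional T cells (Tconv, 2 arrays) were CD4 cells with neither reporter from wild-type mice. The mutant cells thus developed in mice that also hold wild-type Treg cells. The labels give no ages. Whether arrays of a group come from separate animals is not stated, so the p-values measure only how these samples spread, which may be technical.

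Values are log2 values made by the authors and shifted so that the 2 Tconv arrays average 0 at each probe set. A value of 1 is therefore a doubling over the Tconv mean, the level of a gene is lost, and no gene can be called absent or compared in level with another gene. Foxp3 itself lay between 6.38 and 7.59 on all Treg arrays and at -0.07 and 0.07 on the Tconv arrays, and all 6 Treg markers examined were higher in wild-type Treg cells than in Tconv cells. The median of these 6 markers was 4.15 to 4.55 on A384T, 3.69 to 4.08 on I363V and 3.34 to 3.82 on R397W arrays, against 4.42 to 4.58 on WT hCD2 arrays. Foxp3 was 6.38, 6.55 and 7.0 on R397W arrays, against 7.33 and 7.06 on WT hCD2 arrays. In the limma fit described below (adjusted p under 0.05), 3 of the 6 were called lower in R397W than in WT hCD2 cells. These were Il2ra (-0.965), Ikzf2 (-1.02) and Nrp1 (-1.79). In I363V cells 1 was called lower, Ikzf2 (-0.91), and in A384T cells 0 were called against WT hCD2. A blocked fit within A384T mice, given below, called markers in both directions. The medians of the lists for B cells, dendritic cells, plasma cells, and CD8 T and NK cells lay between -0.63 and 0.20 on all Treg arrays. Single markers in these lists did differ between wild-type Treg and Tconv cells. Cd79b of B cells (2.21) and Xbp1 of plasma cells (0.93) were called higher. Itgax (-1.16) and Flt3 (-0.51) of dendritic cells and Prf1 (-1.99) were called lower. Each sample is bulk RNA, in which fewer cells of a type and less RNA per cell cannot be told apart.

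The 250 bases before the RefSeq start of Fgl2, Gzmb and Ebi3 are shown, because these 3 genes were lower in both I363V and R397W cells and RefSeq windows of build GRCm38.p6 were at hand for them. The windows lie at chr5:21372423-21372672 (plus strand) for Fgl2, chr14:56262335-56262584 (minus strand) for Gzmb and chr17:55952373-55952622 (plus strand) for Ebi3. Capitals mark matches to the 3 motifs searched on both strands, the forkhead core TGTTTAC, the short forkhead core TAAACA, which overlaps the reverse complement of the first, and the AP-1 site TGANTCA. The motifs were chosen after the sequences had been read.

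Fgl2: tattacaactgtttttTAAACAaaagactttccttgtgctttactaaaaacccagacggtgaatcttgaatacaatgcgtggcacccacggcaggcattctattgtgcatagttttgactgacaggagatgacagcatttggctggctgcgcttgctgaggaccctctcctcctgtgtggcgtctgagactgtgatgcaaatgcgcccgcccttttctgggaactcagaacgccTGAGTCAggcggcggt

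Gzmb: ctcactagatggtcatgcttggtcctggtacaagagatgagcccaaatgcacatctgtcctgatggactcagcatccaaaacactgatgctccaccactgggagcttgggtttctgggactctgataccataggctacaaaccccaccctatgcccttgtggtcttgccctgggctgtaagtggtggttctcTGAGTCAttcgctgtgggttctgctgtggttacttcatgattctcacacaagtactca

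Ebi3: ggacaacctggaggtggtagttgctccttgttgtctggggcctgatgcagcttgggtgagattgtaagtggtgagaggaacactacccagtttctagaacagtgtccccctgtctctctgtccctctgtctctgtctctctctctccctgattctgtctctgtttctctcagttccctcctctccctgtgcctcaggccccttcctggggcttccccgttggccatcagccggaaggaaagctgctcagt

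The Fgl2 window held TAAACA, beginning 234 bases before the start, and TGAGTCA, beginning 16 bases before it. The Gzmb window held TGAGTCA at 58 bases and the Ebi3 window held none of the motifs. Among the other members with a window, Ecm1 held TGAGTCA at 64 bases and Il12a held none, so windows were found for 5 of the 7 genes. Il10 and Penk are named only. Of 32851 such mouse windows, 3.2% held TGTTTAC, 12% held TAAACA and 6.7% held TGANTCA. A match is a description of letters and not a binding site.

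Of the 7 genes, 5 were higher in wild-type Treg cells than in Tconv cells, and 4 of these 5 (Fgl2, Gzmb, Ebi3 and Penk) were lower in I363V and in R397W cells than in WT hCD2 cells. Ecm1 kept a value above Tconv on every Treg array. Il10 had its lowest Treg group mean in R397W cells, and its A384T values lay among those of wild-type cells. The comparison of wild-type Treg cells with Tconv cells and the comparisons with WT hCD2 share the WT hCD2 arrays. Il12a lay near 0 on all 18 arrays.

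**Figure D1:**
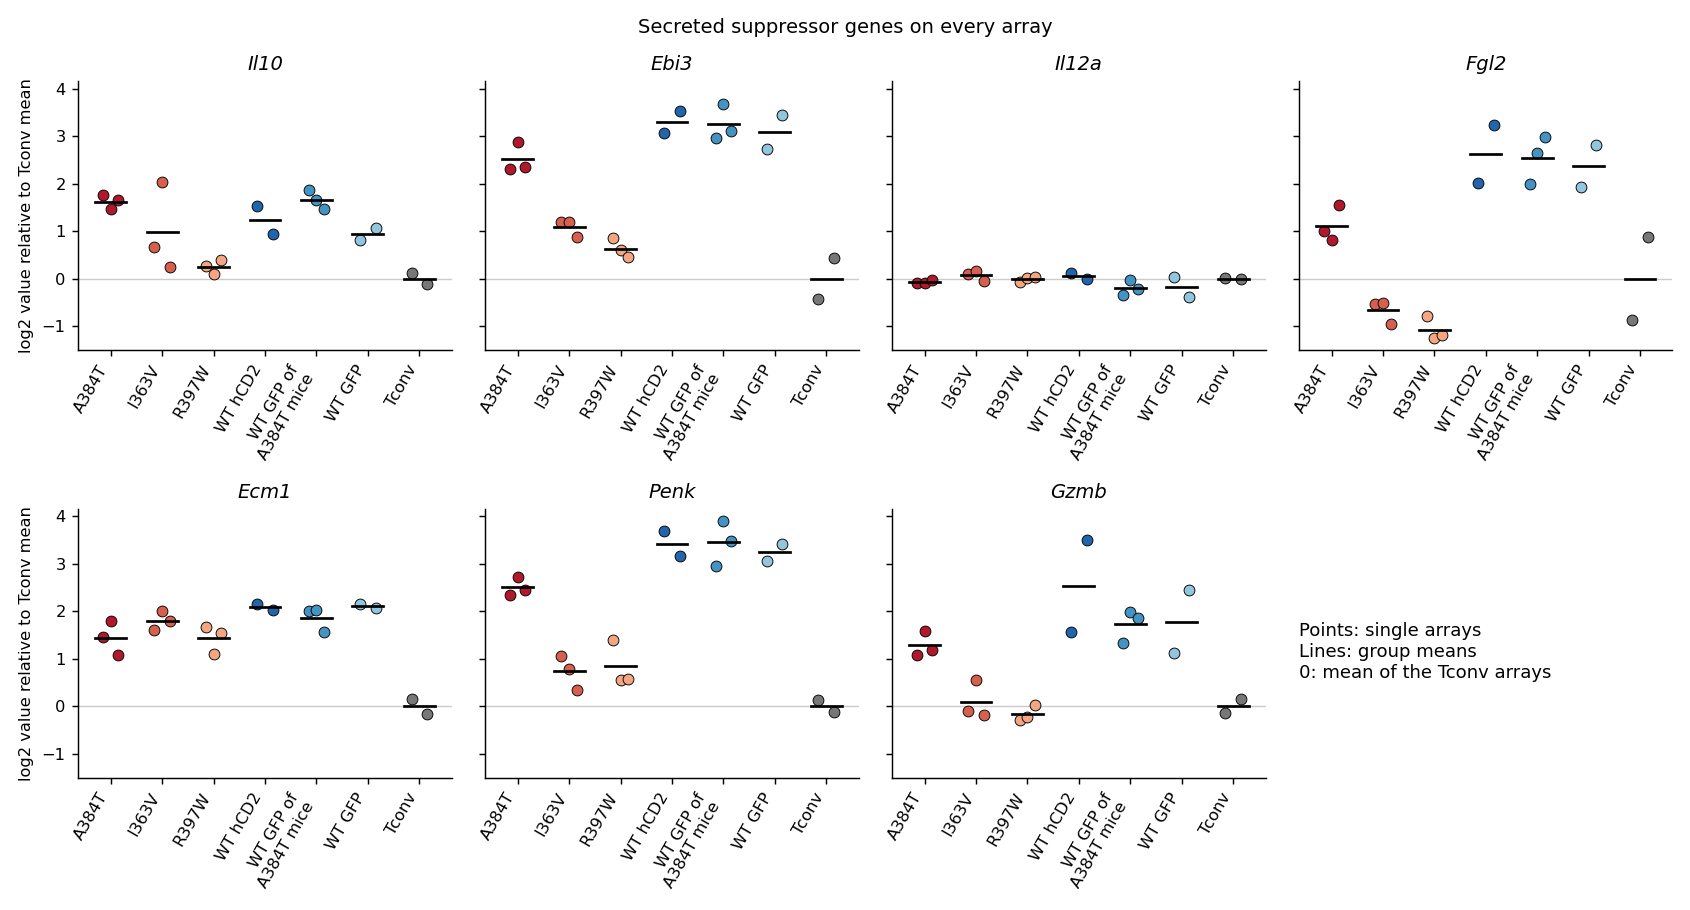
Each panel plots the log2 value of a secreted suppressor gene relative to the Tconv mean (vertical axis) on every array, by group (horizontal axis); points are arrays and lines are group means. Fgl2, Ebi3, Penk and Gzmb are lowest among Treg groups in I363V and R397W cells, Ecm1 stays between 1.09 and 2.16 in all Treg groups, and Il12a stays near 0.

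Beginning with the cytokines, Il10 (probe set 1450330_at, GRCm38.p6 chr1:131019845-131024970) encodes IL-10, which dampens macrophages, dendritic cells and T cells. Its values were 1.76, 1.46 and 1.65 on A384T arrays and 0.65, 2.03 and 0.24 on I363V arrays. R397W arrays had 0.26, 0.10 and 0.39, WT hCD2 arrays 1.53 and 0.94, WT GFP arrays of A384T mice 1.87, 1.66 and 1.47, and WT GFP arrays 0.80 and 1.07. Tconv arrays had 0.11 and -0.11. The R397W arrays were thus all below the wild-type Treg arrays, A384T arrays lay among them, and I363V spread over most of the range because array 2 was high while arrays 1 and 3 were low. Its group means ran in the order WT GFP of A384T mice, A384T, WT hCD2, I363V, WT GFP, R397W and Tconv, and the arrays of neighbours in this order overlapped except between WT GFP and R397W.

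On I363V array 2, where Il10 was highest, the immediate early gene Fosb was also high, at 6.01 against 2.70 and 1.76 on I363V arrays 1 and 3. R397W arrays went the other way. Fosb was highest on R397W array 2 (1.73, against -0.52 and -0.28 on arrays 1 and 3), where Il10 was lowest (0.10). The part of Fosb in the Il10 values was not tested. The Il10 difference between I363V and A384T cells was -0.65 ± 0.32 (adjusted p = 0.612), and without I363V array 2 it was -1.18 with an adjusted p of 0.00829.

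Ebi3 (1449222_at, chr17:55952623-55957022) encodes the beta subunit of IL-35 and IL-27. It had 2.32, 2.89 and 2.36 on A384T arrays, 1.20, 1.20 and 0.87 on I363V arrays and 0.84, 0.59 and 0.46 on R397W arrays. WT hCD2 arrays had 3.07 and 3.52, WT GFP arrays of A384T mice 2.96, 3.68 and 3.10, WT GFP arrays 2.73 and 3.45, and Tconv arrays -0.43 and 0.43. The groups formed steps, with wild-type Treg cells at the top, then A384T, I363V, R397W and Tconv. A384T arrays overlapped the WT GFP arrays, whereas I363V did not overlap A384T, R397W did not overlap I363V and Tconv did not overlap R397W. On the linear scale the group means were 5.75-fold above Tconv in A384T cells and 9.84-fold in WT hCD2 cells.

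Il12a (1425454_a_at, chr3:68690644-68698550) encodes the p35 subunit shared by IL-12 and IL-35. The mutant arrays lay between -0.10 and 0.16, against -0.38 to 0.11 on the wild-type Treg arrays and 0.01 and -0.01 on the Tconv arrays. It ranked 13621 of 18193 genes by variance over the arrays, so the partner of Ebi3 in IL-35 showed almost no variation in these samples. Whether its RNA was near the background of the array cannot be told from centred values.

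Turning to the other secreted effectors, Fgl2 (1421855_at, chr5:21372673-21378386) had 0.99, 0.80 and 1.56 on A384T arrays, -0.54, -0.52 and -0.95 on I363V arrays and -0.79, -1.25 and -1.19 on R397W arrays. WT hCD2 arrays had 2.02 and 3.25, WT GFP arrays of A384T mice 1.998, 2.64 and 2.98, WT GFP arrays 1.92 and 2.82, and Tconv arrays -0.87 and 0.87. All A384T arrays were below all wild-type Treg arrays, and all I363V and R397W arrays were below all A384T arrays. The I363V and R397W arrays lay in or below the wide range of the 2 Tconv arrays. Fgl2 ranked 17 of 18193 genes by variance, the highest rank among the members.

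The second Fgl2 probe set (1421854_at) gave 0.60, 0.39 and 1.02 on A384T arrays, -0.14, -0.48 and 0.17 on I363V arrays and -0.44, -0.39 and -0.22 on R397W arrays, against 1.18 and 2.01 on WT hCD2 arrays. On this probe set too, the A384T mean lay below the means of the wild-type Treg groups and above those of Tconv, I363V and R397W. Single arrays overlapped here, however, since A384T array 3 (1.02) was above WT GFP array 1 (0.68). I363V (-1.75, adjusted p = 0.0351) and R397W (-1.95, adjusted p = 0.0103) were lower than WT hCD2 on this probe set as well.

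Penk (1427038_at, chr4:4133536-4138815), the enkephalin precursor, had 2.35, 2.72 and 2.45 on A384T arrays, 1.07, 0.79 and 0.34 on I363V arrays and 1.40, 0.55 and 0.57 on R397W arrays. WT hCD2 arrays had 3.70 and 3.16, WT GFP arrays of A384T mice 2.96, 3.91 and 3.49, WT GFP arrays 3.06 and 3.43, and Tconv arrays 0.13 and -0.13. The A384T arrays formed a band of their own below every wild-type Treg array and above every I363V and R397W array. I363V and R397W arrays overlapped each other and stayed above the Tconv arrays.

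Gzmb (1419060_at, chr14:56258836-56262334), which encodes granzyme B, had 1.09, 1.58 and 1.18 on A384T arrays, -0.11, 0.55 and -0.18 on I363V arrays and -0.28, -0.23 and 0.02 on R397W arrays. WT hCD2 arrays had 1.58 and 3.51, WT GFP arrays of A384T mice 1.34, 1.99 and 1.87, WT GFP arrays 1.11 and 2.45, and Tconv arrays -0.15 and 0.15. The wild-type arrays of 1 group differed widely, A384T arrays reached into their lower range, and I363V and R397W arrays lay around the Tconv arrays. The large SD of the WT hCD2 group, 2.54 ± 1.37 (SD, n = 2), reflects the gap between its 2 arrays.

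Ecm1 (1448613_at, chr3:95734147-95739876), the matrix glycoprotein, had 1.46, 1.79 and 1.09 on A384T arrays, 1.60, 2.02 and 1.79 on I363V arrays and 1.66, 1.11 and 1.54 on R397W arrays. WT hCD2 arrays had 2.16 and 2.02, WT GFP arrays of A384T mice 2.01, 2.02 and 1.56, WT GFP arrays 2.15 and 2.06, and Tconv arrays 0.16 and -0.16. Every Treg array was well above the Tconv arrays, and mutant and wild-type Treg arrays overlapped. In the order of group means, only the last step, between R397W and Tconv, had no overlap.

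The comparison of wild-type Treg cells (WT GFP and WT hCD2, 4 arrays) with Tconv cells asks which of the genes mark Treg cells. In limma's moderated test with Benjamini-Hochberg adjustment over all genes, 5 of 7 members rose, where 3.81% of all genes were called higher. Penk was 3.34 ± 0.29 higher (log2 difference ± SE, adjusted p = 3.25e-06) and Ebi3 3.19 ± 0.28 higher (adjusted p = 3.23e-06). Fgl2 rose by 2.50 ± 0.45, Gzmb by 2.16 ± 0.44 and Ecm1 by 2.10 ± 0.21. Il10 did not pass (1.09 ± 0.34, adjusted p = 0.0926), nor did Il12a (-0.07 ± 0.12, adjusted p = 0.879). The median over the 7 members was 2.16, against -0.01 over all genes. Without Tconv array 1 the calls of Fgl2 (1.63, adjusted p = 0.0778) and Gzmb (2.02, adjusted p = 0.0842) were lost.

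Each mutant was then compared with WT hCD2 cells, which carry the same reporter, to ask how a substitution in Foxp3 alters these genes. These comparisons share the 2 WT hCD2 arrays, so they are not independent of each other. In R397W cells 4 of 7 members fell, where 1.55% of all genes were called lower. Fgl2 fell by 3.71 ± 0.47, or 13.1-fold (adjusted p = 0.00064), and Gzmb fell by 2.71 ± 0.46 (adjusted p = 0.00544). Ebi3 fell by 2.67 ± 0.29 (adjusted p = 0.000254) and Penk by 2.59 ± 0.31 (adjusted p = 0.000395). The median over the members was -2.59, against -0.02 over all genes. Il10 (-0.99 ± 0.36, adjusted p = 0.244), Ecm1 (-0.65 ± 0.22, adjusted p = 0.179) and Il12a (-0.05, adjusted p = 0.944) did not pass. Against the mean of all 3 wild-type Treg groups, a choice made after seeing the data, the Il10 difference was -1.03 with an adjusted p of 0.0383. Without WT hCD2 array 4 the call of Gzmb was lost (-1.74, adjusted p = 0.0849).

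In I363V cells 4 of 7 members fell, where 0.682% of all genes were called lower. Fgl2 fell by 3.31 ± 0.47, or 9.90-fold (adjusted p = 0.00283), and Penk by 2.70 ± 0.31 (adjusted p = 0.000508). Gzmb (-2.45 ± 0.46, adjusted p = 0.020) and Ebi3 (-2.21 ± 0.29, adjusted p = 0.0017) were the others. The median over the members was -2.21. The 95% interval of the Ecm1 difference was -0.75 to 0.18 (estimate -0.28, adjusted p = 0.805), and that of Il10 was -1.04 to 0.51 (estimate -0.26, adjusted p = 0.917). Il12a differed by 0.02 (adjusted p = 0.987). Without WT hCD2 array 4 Penk was the member still called, while Fgl2 (-2.70, adjusted p = 0.0959), Ebi3 (-1.99, adjusted p = 0.0621) and Gzmb (-1.49, adjusted p = 0.324) were not. The Gzmb call was also lost without I363V array 1 (adjusted p = 0.0709) or array 3 (adjusted p = 0.0783).

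In A384T cells limma called 0 of 7 members against WT hCD2, where 0.28% of all genes were called in either direction, and 5 members had an unadjusted p under 0.05, as did 8.07% of all genes. These 5 lay below 0: Fgl2 (-1.52 ± 0.47, adjusted p = 0.338), Gzmb (-1.26 ± 0.46), Penk (-0.93 ± 0.31), Ebi3 (-0.78 ± 0.29) and Ecm1 (-0.64 ± 0.22). Without WT hCD2 array 4 the Gzmb difference was -0.29 and the Fgl2 difference -0.91. Il10 was 0.39 ± 0.36 on the other side of 0, with an interval of -0.39 to 1.16.

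**Figure D2:**
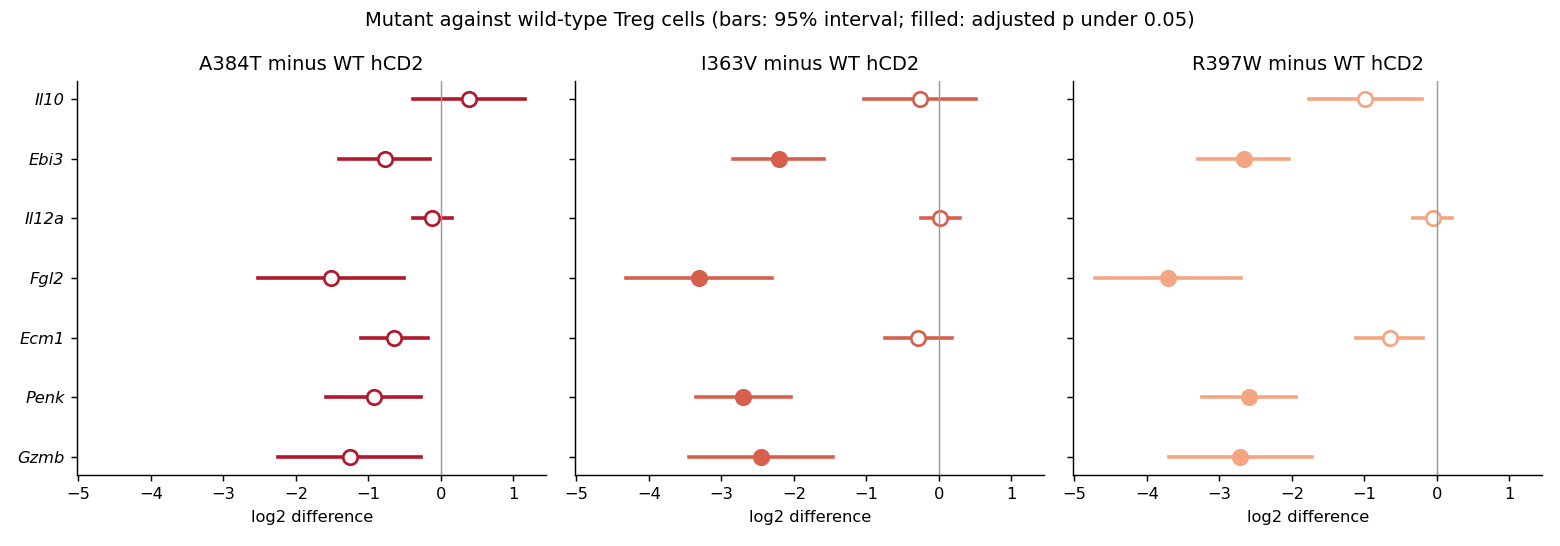
Log2 difference of each mutant group from WT hCD2 (horizontal axis) for the 7 genes (rows); points are limma estimates, bars are 95% intervals, and filled points have an adjusted p under 0.05 over all genes. Fgl2, Gzmb, Penk and Ebi3 are filled for I363V and R397W, and no gene is filled for A384T.

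Markers of other cells moved beside some of these differences. The median of 8 myeloid markers was -1.04 to -0.04 on A384T arrays, -0.75 to -0.23 on I363V arrays and -1.04 to -0.79 on R397W arrays, against -0.26 to -0.13 on WT hCD2 arrays. Of the 8 markers 1, lysozyme 2 (Lyz2), was called in R397W against WT hCD2 (-2.66 ± 0.35, adjusted p = 0.000849), and 0 were called in I363V or A384T. Macrophages also express Fgl2. Lyz2 was at -1.83, -2.06 and -1.53 on R397W arrays and at 0.58, 0.62 and 0.48 on I363V arrays. It was at -1.28, 0.02 and -0.14 on A384T arrays, against 1.17 and 0.53 on WT hCD2 arrays. Over the 8 markers the differences from WT hCD2 had a median of -0.60 (range -2.66 to -0.04) in R397W and -0.28 (range -0.75 to 0.03) in I363V cells. In A384T cells their median was -0.41 (range -1.32 to -0.004). Of 6 B cell markers 1, Cd22, fell in I363V cells (-1.03 ± 0.23). The part of RNA of other cells in the member values was not tested. Prf1 and Gzma, granule genes of CD8 T and NK cells, were not called in any mutant against WT hCD2, and that list's array medians lay between -0.39 and 0.08 on all Treg arrays.

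The GFP-positive wild-type Treg cells of A384T mice give a comparison within the same kind of mouse, although the reporter differs. On arrays with equal numbers, the log2 difference of A384T from wild-type cells was -1.004, -1.84 and -1.42 for Fgl2 and -0.61, -1.19 and -1.05 for Penk. It was -0.65, -0.79 and -0.74 for Ebi3, -0.25, -0.41 and -0.69 for Gzmb, and -0.54, -0.23 and -0.47 for Ecm1. For these 5 genes A384T was the lower in all 3 pairs, as it was for 20.6% of all genes. Il10 differed by -0.11, -0.20 and 0.18, and Il12a by 0.26, -0.06 and 0.19, so their pairs were split.

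Without pairing, limma called 0 of the 7 members (4 at an unadjusted p under 0.05, as were 5.03% of all genes), where 0.522% of all genes were called. A384T and wild-type arrays of equal number deviated together from their group means, and with the array number as a replicate block 5 of 7 members fell, where 3.42% of all genes were called lower. Fgl2 fell by 1.42 ± 0.14 (adjusted p = 0.000546), Penk by 0.95 ± 0.11 (adjusted p = 0.00159) and Ebi3 by 0.73 ± 0.08 (adjusted p = 0.000913) in this blocked fit. Gzmb (-0.45 ± 0.10, adjusted p = 0.0324) and Ecm1 (-0.41 ± 0.09, adjusted p = 0.0287) fell less. Il10 differed by -0.04 ± 0.09, with an interval of -0.25 to 0.17. Leaving out a pair, Fgl2, Penk and Ebi3 were called each time, whereas Gzmb was lost without pair 3 (adjusted p = 0.188) and Ecm1 without pair 1 (adjusted p = 0.199) or pair 3 (adjusted p = 0.171). With so few arrays left, these fits lean on the spread shared across genes and are a weak check. In the blocked fit Lyz2 (-0.50) and Fcgr3 (-0.48) fell too among the 8 myeloid markers, and their part in the Fgl2 value was not tested. Of the 6 Treg markers, Nrp1 (-0.65 ± 0.08) and Ikzf2 (-0.37 ± 0.08) fell in this fit and Il2ra (0.65 ± 0.08) rose. Il2ra lay at 6.0, 6.06 and 6.3 on A384T arrays, against 5.45, 5.46 and 5.49 on WT GFP arrays of A384T mice.

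**Figure D3:**
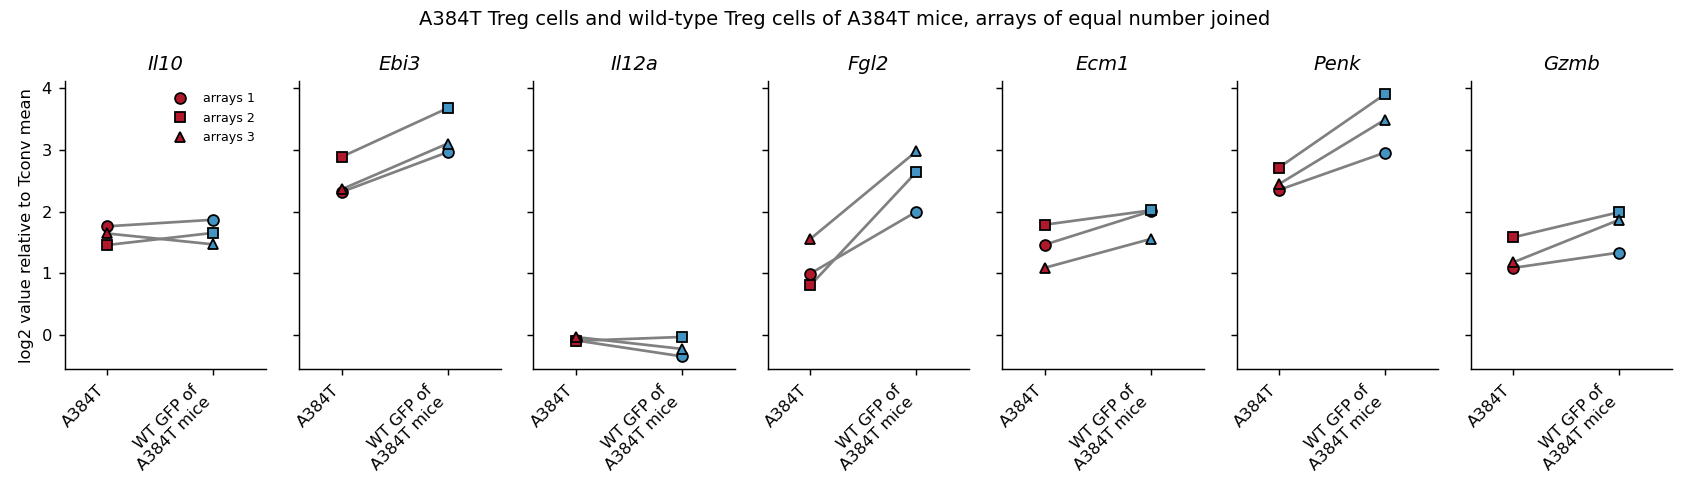
Log2 values relative to the Tconv mean (vertical axis) of A384T Treg cells and of wild-type GFP Treg cells of A384T mice, with arrays of equal number joined. The lines of Fgl2, Ebi3, Penk, Gzmb and Ecm1 all run lower at A384T, and those of Il10 and Il12a do not all run the same way.

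The reporters themselves were compared in wild-type mice, WT hCD2 against WT GFP, as a background for that difference. With 0% of all genes called, limma called 0 of 7 members, and 0 had an unadjusted p under 0.05. The widest member difference was that of Gzmb (0.76 ± 0.51). Taking this reporter difference off the A384T difference, as an interaction, again gave 0 of 7 members called (0.0495% of all genes), with 3 members at an unadjusted p under 0.05, as were 3.75% of all genes: Fgl2 (-1.68 ± 0.67), Penk (-1.13 ± 0.43) and Ebi3 (-0.93 ± 0.41), each at an adjusted p of 1.0. Wild-type GFP cells of A384T mice were also compared with those of wild-type mice, to see whether wild-type cells change beside A384T cells. There limma called 0 of 7 members, 0 of them at an unadjusted p under 0.05, with 0% of all genes called. The largest member difference there was 0.73 ± 0.36 for Il10.

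The mutants were compared with each other directly. In R397W against A384T cells 4 of 7 members fell, where 2.22% of all genes were called lower: Fgl2 (-2.19, adjusted p = 0.0102), Ebi3 (-1.89, adjusted p = 0.000914), Penk (-1.66, adjusted p = 0.00323) and Il10 (-1.37 ± 0.32, adjusted p = 0.0335). Gzmb did not pass (-1.45, adjusted p = 0.0794), and the Ecm1 interval was -0.42 to 0.40. The Il10 call was lost when any single array of the compared groups was left out (adjusted p = 0.0509 to 0.108), and the Fgl2 call was lost without A384T array 3 (adjusted p = 0.056) and on the second probe set (-1.02, adjusted p = 0.122). Of the 6 Treg markers 4 fell: Foxp3 (-0.70 ± 0.17), Il2ra (-1.71 ± 0.16), Ctla4 (-1.01 ± 0.22) and Nrp1 (-1.58 ± 0.24). Markers of other cells moved here as well. Ms4a1 of B cells rose (1.59 ± 0.27), and Lyz2 (-1.34 ± 0.31) and the T cell gene Cd3e (-0.77 ± 0.18) fell. The part of these changes in the member values was not tested.

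In I363V against A384T cells 2 members fell, where 0.885% of all genes were called lower, namely Penk (-1.77, adjusted p = 0.00364) and Ebi3 (-1.44, adjusted p = 0.0124). Fgl2 (-1.79, adjusted p = 0.062) and Gzmb (-1.20, adjusted p = 0.310) did not pass, and Ecm1 was 0.36 higher without passing (adjusted p = 0.651). The Ebi3 call was lost without A384T array 2 (adjusted p = 0.0801) or I363V array 3 (adjusted p = 0.064). The B cell marker Cd22 was lower here too (-1.18 ± 0.20), and of the 6 Treg markers Il2ra fell (-1.43 ± 0.16). Between R397W and I363V cells limma called 0 of 7 members (0.0824% of all genes), with Il10 alone of the members at an unadjusted p under 0.05 (-0.72 ± 0.32, adjusted p = 0.564), as were 8.52% of all genes. The Ebi3 difference was -0.45 and that of Penk 0.11 in this comparison.

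Each mutant was also compared with Tconv cells. These comparisons share the Tconv arrays with each other and with that of wild-type Treg cells. In A384T cells 4 of 7 members were higher, where 4.14% of all genes were called higher: Ebi3 (2.52, adjusted p = 5.29e-05), Penk (2.50, adjusted p = 8.81e-05), Il10 (1.62, adjusted p = 0.0129) and Ecm1 (1.45, adjusted p = 0.000548). Gzmb (1.28, adjusted p = 0.131) and Fgl2 (1.12, adjusted p = 0.214) did not pass. The Il10 call was lost without either Tconv array (adjusted p = 0.0529 and 0.131), and Fgl2 was called without Tconv array 2 (1.99, adjusted p = 0.0372).

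In I363V cells Ecm1 was the member called higher than in Tconv cells (1.80, adjusted p = 0.000183), 1 of 7 where 1.48% of all genes were called higher. Ebi3 (1.09, adjusted p = 0.0721), Il10 (0.97, adjusted p = 0.250), Penk (0.73, adjusted p = 0.334), Gzmb (0.09) and Fgl2 (-0.67, adjusted p = 0.653) did not pass, and Ebi3 was called without Tconv array 2 (1.52, adjusted p = 0.0435). In R397W cells Ecm1 was again the member called higher (1.44, adjusted p = 0.0017), 1 of 7 where 1.06% of all genes were called higher. Penk (0.84, adjusted p = 0.268), Ebi3 (0.63, adjusted p = 0.450), Il10 (0.25, adjusted p = 0.899), Gzmb (-0.17) and Fgl2 (-1.08, adjusted p = 0.408) did not pass.

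Genes that act with these molecules were followed as lists. Of 11 receptors and binding partners, 4 fell in R397W cells against WT hCD2: both chains of the IL-10 receptor, Il10ra (-1.71 ± 0.15) and Il10rb (-0.83 ± 0.14), Il12rb1 (-1.24 ± 0.17), a chain of the IL-12 receptor, and Il2rb (-1.93 ± 0.47), the IL-2 receptor beta chain that Ecm1 can bind. In I363V cells Il10ra (-1.06 ± 0.15) and Il12rb1 (-0.97 ± 0.17) fell, and in A384T cells 0 of 11 were called. The list medians were -0.04 in A384T, -0.17 in I363V and -0.21 in R397W. Against Tconv cells, 4 of the 11 were higher in wild-type Treg cells: Il2rb (3.59), Il12rb1 (1.59), Il10ra (1.28) and Il10rb (0.92), in a comparison that shares the WT hCD2 arrays. The opioid receptors Oprd1, Oprm1 and Oprk1, through which enkephalins act, were not called in these comparisons. In the blocked A384T comparison 1 of the 11 genes fell, Il12rb1 (-0.38 ± 0.09).

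Among 12 granzyme pathway genes 3 fell in R397W cells, the granule proteoglycan Srgn (-0.63 ± 0.11) and the serpins Serpinb6b (-0.85 ± 0.14) and Serpinb9 (-0.59 ± 0.14), of which Serpinb9 inhibits granzyme B. None of the 12 was called in I363V or A384T against WT hCD2. Perforin (Prf1), which lets granzymes enter target cells, was lower in wild-type Treg than in Tconv cells (-1.99 ± 0.25), opposite to Gzmb, and Gzmk was lower as well (-1.33 ± 0.18). In the blocked A384T comparison Prf1 (0.42 ± 0.08) and the granule protein Nkg7 (0.94 ± 0.08) rose while Gzmb, Srgn (-0.37) and Serpinb6b (-0.57) fell. Nkg7 was lower in I363V (-2.01) and R397W (-2.02) than in A384T cells.

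Of 4 genes for enkephalin processing, 1, the carboxypeptidase Cpe, was higher in wild-type Treg than in Tconv cells (2.29 ± 0.22), as Penk was. It did not pass in A384T (-0.03), I363V (-0.75, adjusted p = 0.239) or R397W cells (-0.30) against WT hCD2, and 0 of 4 were called there. The other IL-12 family subunits, Il12b and Il23a, were not called in these comparisons either.

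Among 12 transcription factors tied to Il10 in Treg cells, 8 were higher in wild-type Treg than in Tconv cells, including Ahr (2.63), Maf (2.11), Irf4 (1.86) and Prdm1 (0.83). In R397W cells 4 of the 12 fell against WT hCD2, namely Tbx21 (-1.75 ± 0.27), Prdm1 (-1.46 ± 0.22), Maf (-1.44 ± 0.33) and Gata3 (-1.18 ± 0.26), and the list median was -1.18. In I363V cells Prdm1 (-1.32 ± 0.22) was the gene called, and in A384T cells 0 were called. In the blocked comparison within A384T mice 6 of 12 fell, led by Batf (-1.31 ± 0.08), Rora (-1.27 ± 0.08) and Maf (-1.09 ± 0.09), and Ikzf3 rose (0.66 ± 0.10), while Il10 itself was not called.

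**Figure D4:**
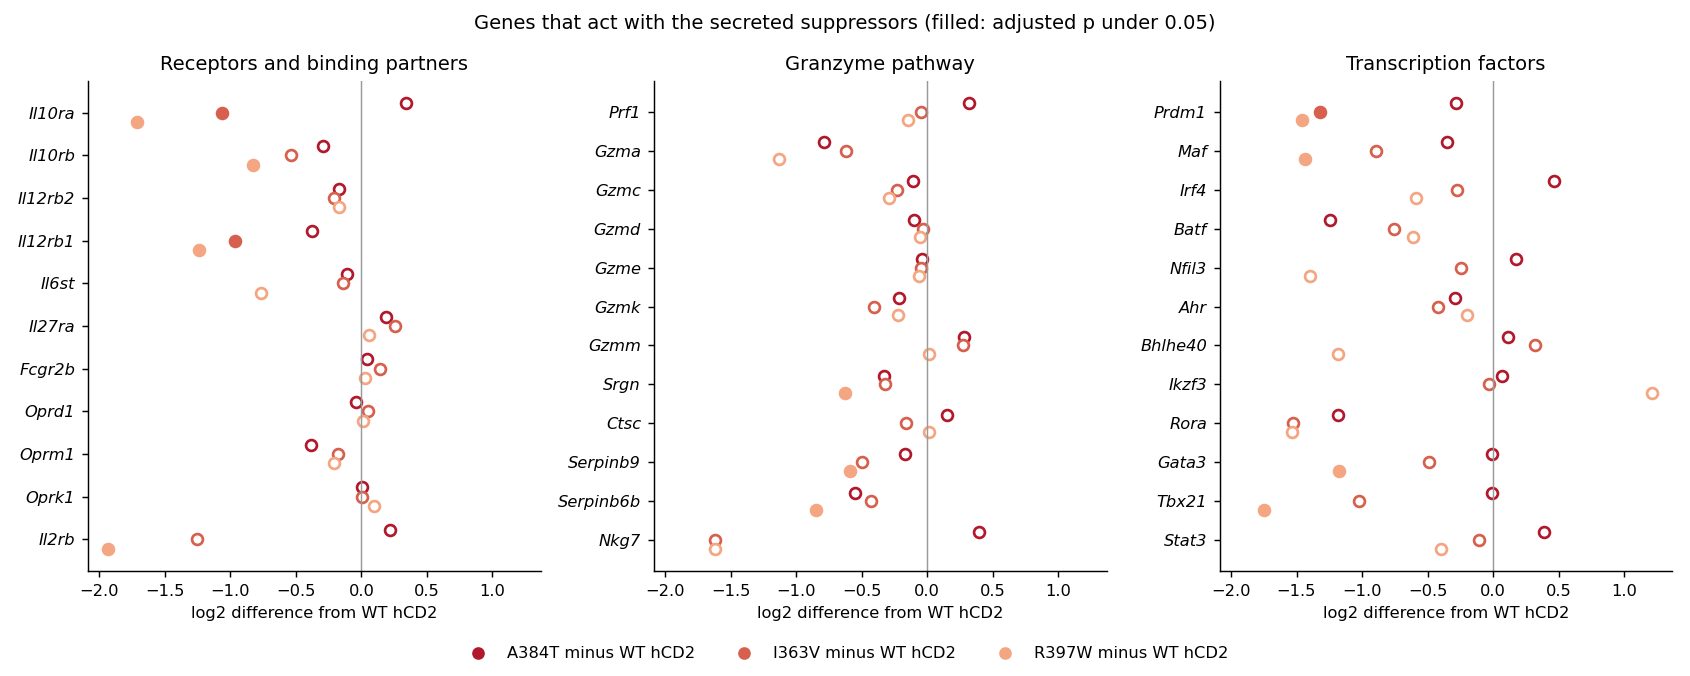
Log2 difference of A384T, I363V and R397W from WT hCD2 (horizontal axis) for receptors and binding partners, granzyme pathway genes and transcription factors (rows); filled points have an adjusted p under 0.05 over all genes. Filled points are found for R397W in all panels, with Il2rb at -1.93 the lowest, and no point is filled for A384T.

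Other secreted regulators gave a mixed picture. Of 12 measured, the galectin Lgals1 fell in all 3 mutants against WT hCD2, by 1.48 ± 0.27 in A384T, 1.79 ± 0.27 in I363V and 1.69 ± 0.27 in R397W cells, which share the WT hCD2 arrays. Lgals3 (-2.46 ± 0.58) and Metrnl (-0.66 ± 0.13) fell in R397W cells. The Lgals3 difference was -2.71 ± 0.58 in A384T (adjusted p = 0.0807) and -1.84 ± 0.58 in I363V cells (adjusted p = 0.231), without passing. The semaphorin Sema4a, lower in wild-type Treg than in Tconv cells (-1.33 ± 0.14), was higher in I363V (0.82 ± 0.15) and R397W cells (1.10 ± 0.15). The list medians were -0.02, -0.09 and -0.08 in A384T, I363V and R397W. For TGF-beta, whose latent form is activated at the cell surface, the integrin chain Itgb8 was 4.92 ± 0.31 higher in wild-type Treg than in Tconv cells and fell in I363V (-1.84 ± 0.32) and R397W cells (-1.89 ± 0.32). It was 1 of 6 TGF-beta activation genes called in each of these mutants. Of 9 cell surface and enzyme suppressor molecules, 4 fell in R397W and 2 in I363V cells against WT hCD2. Entpd1 fell in both (-1.82 ± 0.16 in R397W, -1.34 ± 0.16 in I363V), and 0 of the 9 were called in A384T cells. In the blocked A384T comparison 3 of these 9 fell, Icos (-0.78), Nrp1 (-0.65) and Pdcd1 (-0.42), and Il2ra rose (0.65). That fit also called lower Itgb8 (-0.69) and Itgav (-0.53) of TGF-beta activation, and Lgals3 (-2.27 ± 0.11) and Lgals1 (-1.07 ± 0.10).

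Over the 18 arrays, which share their groups and normalization, the members most alike were Ebi3 and Penk (Pearson r = 0.97), followed by Fgl2 and Gzmb (0.91). Ebi3 had an r of 0.90 with both Fgl2 and Gzmb. Il10 had an r of 0.55 to 0.71 with these 4 genes, Ecm1 had 0.37 to 0.67 with the other members except Il12a, and Il12a had -0.48 to -0.15 with all others. Among all other genes the patterns most like Fgl2 were those of Ccr2 (0.972), Slc25a53 (0.971) and Gm3924 (0.967), and those most like Penk were Cst7 (0.976), Pdcd1lg2 (0.973) and Lamc1 (0.966). Ebi3 was most like Lclat1 (0.972), Pear1 (0.971) and Il12rb1 (0.970), and Gzmb most like Slc25a13 (0.929), Cemip2 (0.929) and Nxpe4 (0.926). Il10 was most like Nfil3 (0.959), Cxcl10 (0.929) and Dclre1a (0.922), and Ecm1 most like Rexo2 (0.927), Prg4 (0.923) and Gsta4 (0.919). For the nearly flat Il12a the highest values were lower, 0.805 for Col5a2, 0.777 for Cdh26 and 0.763 for Astx3.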

How the data were processed

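Per the submitters' processing notes, the authors used RMA, whose version is not given in the sources used here, and deposited log2 values. The log base follows the convention of RMA. At each probe set the 2 Tconv arrays sum to at most 1e-06, so the deposited log2 values are differences from the Tconv mean. Array medians lay between -0.063 and 0.016, and no array was left out or normalized again. A filter on dim probe sets is not possible with such values, and scan batches were not analysed here. The number of arrays limits the precision.

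The chip annotation assigned 34945 of 45101 probe sets to 1 gene, giving 18193 genes. Group means of all 18 arrays were fitted with limma 3.58.1 in R 4.3.3 (11 residual and 3.3 prior degrees of freedom), with two-sided moderated tests and Benjamini-Hochberg adjustment over all genes, and a gene was called at an adjusted p under 0.05. The fit was run on simulated data with independent noise on each array, which does not cover arrays that deviate together. A384T arrays and WT GFP arrays of A384T mice with equal numbers deviated together (correlations 0.69, 0.65 and 0.58, against -0.45 to -0.16 for unequal numbers), which is why the numbers were taken to pair them. WT GFP and Tconv arrays of equal numbers also deviated together (correlation 0.71, against -0.71 for unequal numbers). With 2 arrays in each group these values mirror each other. The fit of group means uses neither pairing. Whether WT hCD2 arrays deviated together with those of another group was not examined. No label states these pairings.

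The members and lists were chosen with earlier results of these data known. All members are named, and the 3 genes most like each member are named by Pearson correlation. Not every called list gene is named. Of the list genes, 8 had no probe set of their own gene alone and were not used. Alternatives were other probe sets, array centring, robust variances, array weights, fewer or more genes, fits of only the groups compared, left-out arrays and blocks. Sequences come from RefSeq (GRCm38.p6). Tables and plots were made with Python 3.11.15, numpy 2.4.6, pandas 2.3.3 and matplotlib 3.10.9.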

Additional observations from a re-analysis of the deposited data

How the results depend on the processing

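Of 302 recomputed differences of members called under at least 1 setting, 0 reversed, 274 kept their side of the threshold, 16 passed it newly and 12 no longer passed. Of 440 recomputed differences of members called under no setting, 5 changed sign, with values between -0.12 and 0.10. The mean of a gene's probe sets, all single-gene probe sets, array centring and robust variances changed no member count, while the second Fgl2 probe set lost the call in R397W against A384T. With only the groups compared, which leaves fewer arrays for the spread, members called were 3 in place of 5 for wild-type Treg against Tconv, 2 in place of 4 for I363V and for R397W against WT hCD2, and 0 in place of 1 for R397W against Tconv. In the same fits, 3 in place of 2 were called for I363V against A384T, and 5 in place of 4 for R397W against A384T and for A384T against Tconv. I363V against Tconv had 2 in place of 1 with array weights or with the more variable genes only, and I363V against A384T had 3 in place of 2 with either. The more variable genes alone also gave 6 in place of 5 for wild-type Treg against Tconv and 5 in place of 4 for R397W against A384T. Leaving out single arrays, counts ranged from 3 to 5 for wild-type Treg against Tconv, 1 to 4 for I363V and 3 to 4 for R397W against WT hCD2, 1 to 3 for I363V against A384T, 2 to 3 for R397W against A384T, 3 to 4 for A384T against Tconv and 1 to 2 for I363V against Tconv. With the replicate block, 5 in place of 0 were called within A384T mice (3 to 5 with a pair left out, added after seeing the data), 0 in place of 2 for I363V against A384T and 2 in place of 4 for R397W against A384T. The last 2 comparisons share only numbers, since equal numbers did not deviate together there (correlations -0.32 to 0.07). A blocked fit of the WT GFP and Tconv arrays alone, with 2 numbers each, called 6 members and 12.3% of all genes higher, against 5 and 3.81% in the fit that also holds the WT hCD2 arrays, so arrays and block changed together. The replicate block changed no count for R397W against I363V (0). Among alternatives added after seeing the data, R397W against the mean of the 3 wild-type Treg groups had 5 members called. The few arrays, the lost levels and the spread of WT hCD2 and Tconv arrays limit these values.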
